A study of Homo sapiens with 8 samples.

Results

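The MYC, MAX and MXD network was described here by the mRNA of 10 genes among the 58688 genes in the count tables: MYC, MYCN, MAX, MXD1, MXI1, MXD3, MXD4, MNT, MLX and MGA. The rule names the genes and uses no measured value, and all 10 were found in the tables. LM2 cells, a lung metastatic derivative of the human triple-negative breast cancer line MDA-MB-231, were the only cells studied. One set of samples was treated for 6 h with DMSO (n = 2) or with 1 µmol/L Ponatinib (n = 2), a small-molecule inhibitor of ABL and several other tyrosine kinases. In the other set, cells were infected for 48 h with lentivirus and selected with puromycin, and they carried a scrambled shRNA (shCtrl), an ABL1 shRNA, an ABL2 shRNA or both ABL shRNAs, with 1 sample each. An shRNA is a short hairpin RNA that lowers the mRNA it targets. The comparisons address how the network's transcripts respond to the drug and to partial knockdown of the mRNA of the kinases ABL1 and ABL2. The labels do not state whether the repeats came from separate cultures, so p-values measure only the spread between these samples, which may be technical.

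MYC and its relative MYCN are transcription factors that bind DNA only as a pair with MAX. The pair recognizes the E-box, the letters CACGTG, and drives genes for ribosome production, nucleotide and polyamine synthesis and cell cycle entry. MXD1, MXI1, MXD3 and MXD4 (the MXD family), MNT and MGA compete for MAX and repress transcription. The MXD proteins and MNT do so through the SIN3 corepressor, whereas MGA belongs to a Polycomb complex. MLX resembles MAX but pairs with the nutrient sensors MondoA (MLXIP) and ChREBP (MLXIPL), and also with MNT and some MXD proteins. MYC mRNA is short-lived and is induced by growth factor signaling, while some MXD proteins, such as MXD1, are known from cells that leave the cell cycle.

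The E-box is shown first because it is the site that the network's pairs recognize. RefSeq promoter windows of 250 bases before to 50 bases after the gene start (GRCh38.p14) were matched for 9 of the 10 genes. The 6 letters CACGTG, which read the same on both strands, were found in 3 of these 9 windows (33.3%), against 2030 of 27305 windows of all genes (7.43%). The 3 were those of MXD4, MNT and MLX, and the motif began 238, 193 and 50 bases before the start. Of the MYC-activated target genes listed further on, 17 of 46 windows (37.0%) held it. EIF4E, the cap-binding translation factor, with motifs 225 and 72 bases before the start, and SRM, spermidine synthase, with 1 motif at 199 bases, are printed as examples that were picked after their values were seen. The exon-free bases before the start are given 5′ to 3′ on the gene's strand, with CACGTG in capitals. Distances are counted from the RefSeq start. Bases before it that lie in annotated exons are left out, so the printed stretches of MNT, MLX and SRM end short of that start.
MXD4 (chr4:2262110-2262359, minus strand): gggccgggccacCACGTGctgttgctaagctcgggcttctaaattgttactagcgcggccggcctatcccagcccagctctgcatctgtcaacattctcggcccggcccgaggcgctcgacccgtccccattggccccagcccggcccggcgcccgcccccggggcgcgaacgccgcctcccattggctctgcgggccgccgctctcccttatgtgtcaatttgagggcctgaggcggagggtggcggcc
MNT (chr17:2401105-2401310, minus strand): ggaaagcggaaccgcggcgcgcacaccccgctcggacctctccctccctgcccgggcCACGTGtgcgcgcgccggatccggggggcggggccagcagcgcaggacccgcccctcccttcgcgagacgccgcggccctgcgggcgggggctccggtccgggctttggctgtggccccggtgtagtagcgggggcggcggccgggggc
MLX (chr17:42566850-42567071, plus strand): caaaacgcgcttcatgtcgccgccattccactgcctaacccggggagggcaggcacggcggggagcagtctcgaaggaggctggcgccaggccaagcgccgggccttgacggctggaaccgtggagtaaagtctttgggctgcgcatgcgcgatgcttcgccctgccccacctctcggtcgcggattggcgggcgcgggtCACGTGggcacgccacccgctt
EIF4E (chr4:98929134-98929383, minus strand): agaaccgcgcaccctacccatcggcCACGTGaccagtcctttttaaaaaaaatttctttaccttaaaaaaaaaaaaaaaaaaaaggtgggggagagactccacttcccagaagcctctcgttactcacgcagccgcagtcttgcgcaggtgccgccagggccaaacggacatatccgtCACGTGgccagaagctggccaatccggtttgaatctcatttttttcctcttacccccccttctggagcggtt
SRM (chr1:11060021-11060268, minus strand): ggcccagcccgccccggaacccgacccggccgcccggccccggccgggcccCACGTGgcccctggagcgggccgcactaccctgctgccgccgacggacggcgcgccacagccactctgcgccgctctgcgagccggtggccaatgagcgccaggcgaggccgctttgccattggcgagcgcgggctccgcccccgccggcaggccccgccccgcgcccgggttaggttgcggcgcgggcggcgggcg
A match is a description of the letters and not evidence that a factor binds there.

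Counts on genes summed to between 7568934 and 13010896 per sample. The MDA-MB-231 markers VIM, CD44, AXL, CAV1, ANXA1 and KRT18 were above 140 normalized CPM (CPM, a gene's counts relative to the library total as scaled by edgeR's TMM factors) in all 8 samples, whereas the luminal genes ESR1, PGR and FOXA1 were at most 1.043 and GATA3 was between 7.174 and 9.606. Among markers of other cell types, PTPRC, CD3E, HBB, CDH5, DCN and ALB were at or near 0 in all samples. CD14, PECAM1 and COL1A1 were detected. In shCtrl the fibroblast collagen COL1A1 was at 406 CPM against 99.1 to 226 in the knockdowns, whereas CD14 was at 2.81 against 5.64 to 7.16 and PECAM1 at 20.5 against 30.7 to 39.6. A header inside the shCtrl table names the ABL1 shRNA and the reverse, and the samples were used as labelled. ABL1 mRNA followed the labels, at 38.4%, 107% and 57.7% of shCtrl in the ABL1, ABL2 and double knockdowns, and ABL2 mRNA was at 90.2%, 39.6% and 62.6%. The treatment and shRNA sets were not compared with each other, since 68 genes had 100 counts or more throughout the treatment set but 0 counts throughout the shRNA set.

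Ponatinib lowered the mRNA of MYC, MLX and MAX and raised that of all 4 MXD family genes and of MNT, with the calls of MAX and MNT depending on the samples or tool used. Of the 10 genes, 9 passed the filter on low counts. The quasi-likelihood test of edgeR, adjusted by Benjamini-Hochberg, called 8 of these 9, with 5 higher and 3 lower. It called 30.7% of all 16031 genes tested (15% higher and 15.7% lower). When only genes with a mean of at least 50 counts were kept, it called 8 members and 4519 of 11933 genes. None of the 9 was past the study's own rule for a DEG, a fold change over 2 with an unadjusted P under 0.05, which 5.48% of all genes met. MXI1 and MXD3 lay just under the fold of 2, and their log2 fold change was above 1 in 6 and 2 of the 10 alternatives. In bulk RNA, fewer cells with a transcript and less of it per cell cannot be told apart.

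MYC, the activating member (ENSG00000136997.11, chromosome 8 from 127735434 to 127742951 on GRCh38), was at 170.4 and 178 normalized CPM in the DMSO samples and at 96.2 and 97.4 in the Ponatinib samples. Both Ponatinib samples lay far below both DMSO samples. The level fell by 44.5%, with a log2 fold change (log2 FC) of -0.85 (standard error, SE, 0.06, adjusted p = 1.46e-07 by edgeR), and 8.05% of all genes tested had a larger change in either direction. MYCN (ENSG00000134323.10, chromosome 2 from 15940550 to 15947007), which serves as the MYC of neural progenitors, had 0 counts in all 8 samples. A count of 0 allows up to 0.231 to 0.396 CPM, depending on the sample's depth, and this limit covers counting error only. MAX, the shared partner (ENSG00000125952.15, chromosome 14 from 65006174 to 65102695), was at 57.9 and 57.8 CPM with DMSO and at 49.4 and 49.2 with Ponatinib. The groups were apart but close, with a log2 FC of -0.23 (SE 0.08, adjusted p = 0.0317 by edgeR). The MAX call was lost without DMSO replicate 1 (adjusted p = 0.209), DMSO replicate 2 (0.19) or Ponatinib replicate 1 (0.0538) and with DESeq2 (0.245), while the log2 FC stayed between -0.25 and -0.22.

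The 4 MXD family genes, whose proteins take MAX away from MYC, were higher in both Ponatinib samples than in both DMSO samples. MXD3 (ENSG00000213347.7, chromosome 5 from 177301461 to 177312757) was at 29.0 and 29.1 CPM with DMSO and at 57.3 and 58.0 with Ponatinib. Its repeats were nearly equal in each group, and the level rose 1.98-fold (log2 FC 0.99, SE 0.08, adjusted p = 4.06e-07 by edgeR). For MXI1 (ENSG00000119950.17, chromosome 10 from 110207605 to 110287365) the values were 13.6 and 13.5 CPM with DMSO and 24.0 and 30.9 with Ponatinib. Here the Ponatinib repeats were further from each other than in the other family members. The mean rose 2.00-fold (log2 FC 1.00, SE 0.14, adjusted p = 5.19e-05 by edgeR), and leaving out 1 sample at a time moved the log2 FC between 0.82 and 1.20.

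MXD1 and MXD4 rose by a smaller amount. MXD1 (ENSG00000059728.7, chromosome 2 from 69897688 to 69942945), known from differentiating cells, was at 18.0 and 20.002 CPM with DMSO and at 27.02 and 29.2 with Ponatinib. The change was 1.48-fold (log2 FC 0.56, SE 0.11, adjusted p = 0.0013 by edgeR). MXD4 (ENSG00000123933.11, chromosome 4 from 2247432 to 2262109) was at 42.5 and 47.8 CPM with DMSO and at 65.4 and 67.4 with Ponatinib, a 1.47-fold change (log2 FC 0.56, SE 0.08, adjusted p = 0.000102 by edgeR). Neither gene's groups overlapped, as was the case for 8 of the 9 tested genes of the network and for 64.9% of all genes tested. All 4 MXD calls held under each of the 10 alternatives.

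MNT and MGA, the other repressive partners of MAX, differed in their values. MNT (ENSG00000070444.11, chromosome 17 from 2384073 to 2401104), which is found in proliferating and resting cells alike, was at 20.5 and 22.1 CPM with DMSO and at 26.2 and 27.9 with Ponatinib. The log2 FC was 0.34 (SE 0.11, adjusted p = 0.0248 by edgeR), and the call was lost without DMSO replicate 1 (adjusted p = 0.22), without DMSO replicate 2 (0.0639) and with DESeq2 (0.234). MGA (ENSG00000174197.13, chromosome 15 from 41621134 to 41773081) was at 74.2 and 68.9 CPM with DMSO and at 62.4 and 71.1 with Ponatinib. Its groups overlapped, and the log2 FC of -0.11 (SE 0.08) missed the threshold (adjusted p = 0.342 by edgeR). Leaving out Ponatinib replicate 2 gave -0.20 (adjusted p = 0.0359) and leaving out Ponatinib replicate 1 gave 0.000283 (adjusted p = 0.999).

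MLX, the partner of the Mondo proteins (ENSG00000108788.8, chromosome 17 from 42567072 to 42573239), was at 76.3 and 78.5 CPM with DMSO and at 56.5 and 56.1 with Ponatinib. Both Ponatinib samples were lower, the level fell by 27.2%, and the log2 FC was -0.46 (SE 0.07, adjusted p = 0.000189 by edgeR). Whether reads were counted by strand is not given in the sources used here, and exons of 4 of these genes overlap those of a protein-coding gene with counts. The overlap was 24.2% of the exon bases of MXD3 with the antisense gene PRELID1 (log2 FC -0.34, adjusted p = 0.00811 by edgeR) and 19.5% with RAB24 on its own strand (0.27, adjusted p = 0.324). It was 18.2% of MLX with PSMC3IP (-0.20, adjusted p = 0.249), 13.1% of MAX with FNTB (0.24, adjusted p = 0.373) and 3.73% of MXD1 with SNRNP27. Every member overlaps some annotated gene, but the other overlapping genes in the tables had at most 6 counts in any sample, among them a noncoding gene across 12.2% of the exon bases of MNT. PRELID1 and MXD3 thus moved in opposite directions, and the part of shared reads in each value was not tested.

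**Figure D1:**
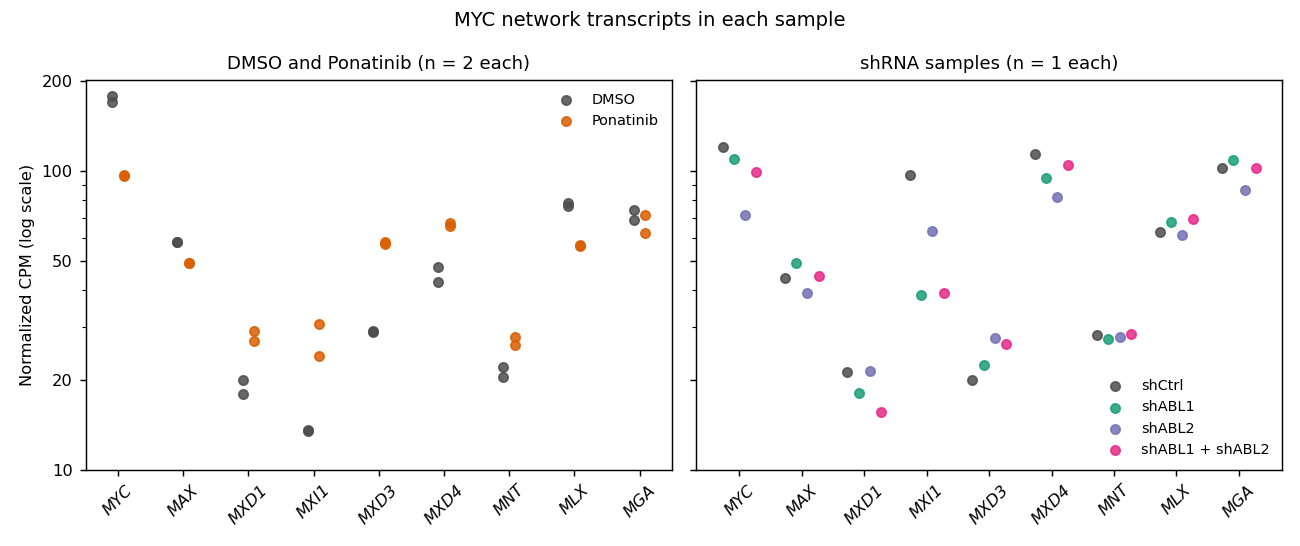
Normalized CPM on a log axis of the 9 detected genes, with 1 point per sample, for the DMSO and Ponatinib samples (left) and the 4 shRNA samples (right). MYC is at 170.4 and 178 with DMSO and at 96.2 and 97.4 with Ponatinib, and MXI1 is highest in shCtrl, at 97.6.

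Levels of different genes were compared as CPM per kb of exon sequence (GENCODE). Bases that overlap other genes, as in MXD3, MLX and MAX, were kept in the lengths. Their effect on these levels and on the shares drawn from them was not tested. In DMSO-treated cells MYC was the most abundant transcript of the network at 28.5 ± 0.90 CPM per kb (SD, n = 2), followed by MLX at 18.2 ± 0.37 and MAX at 9.25 ± 0.02. Then came MXD4 (6.57 ± 0.55), MXD3 (6.12 ± 0.02), MGA (3.56 ± 0.19), MXD1 (2.99 ± 0.22), MNT (2.45 ± 0.13) and MXI1 (2.30 ± 0.01). No neighbors in this order had overlapping sample values. With Ponatinib, MYC at 15.8 ± 0.13 was still first and MLX at 13.2 ± 0.07 next, but MXD3 (12.2 ± 0.11) and MXD4 (9.66 ± 0.20) stood above MAX (7.88 ± 0.02). MXI1 (4.65 ± 0.83) and MXD1 (4.43 ± 0.24) overlapped, as did MGA (3.33 ± 0.31) and MNT (3.11 ± 0.14). With the longest annotated transcript as the length, MXD3 came before MXD4 in DMSO and before MLX in Ponatinib, and the order among MXD1, MNT, MXI1 and MGA also moved.

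The make-up of the transcripts whose proteins pair with MAX turned from mostly MYC to mostly MXD family with Ponatinib. MYC was 54.3% of the summed CPM per kb of MYC, MYCN, the MXD family, MNT and MGA in each DMSO sample, and 30.4% and 29.2% in the Ponatinib samples. The MXD family went from 33.9% and 34.5% to 57.8% and 58.4%. Its sum was thus 0.625 and 0.635 times the level of MYC with DMSO and 1.90 and 2.00 times with Ponatinib. The sum over all MAX partners was 51.4 and 53.7 CPM per kb with DMSO and 51.8 and 54.6 with Ponatinib, so the groups overlapped in the total. These are ratios of the values tested above and were given no test of their own. They describe mRNA, and protein levels were not measured in these files.

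**Figure D2:**
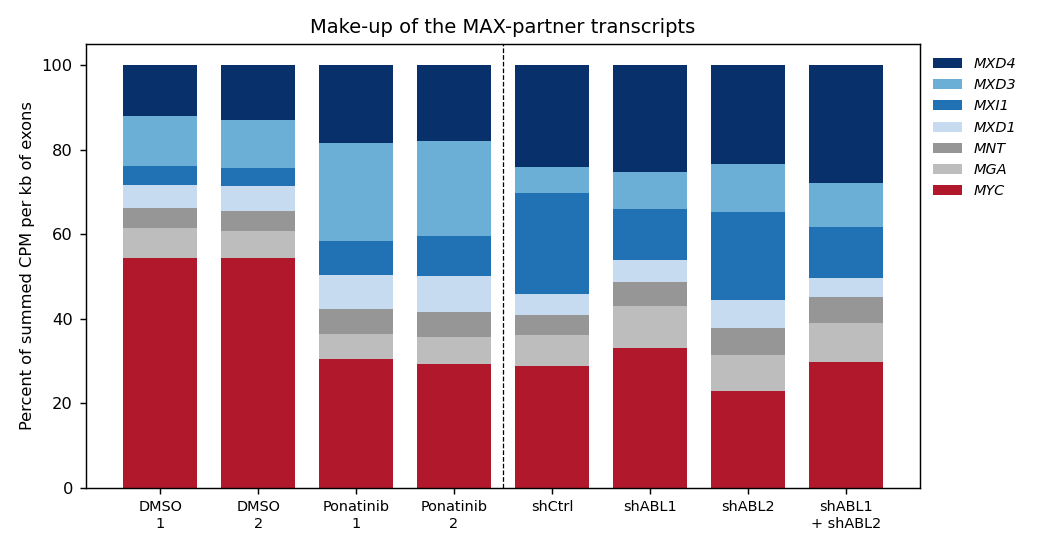
Percent of the summed CPM per kb of exons that each MAX-partner transcript takes in each of the 8 samples, with the treatment set left and the shRNA set right of the dashed line. The MYC share is 54.3% in both DMSO samples, 30.4% and 29.2% in the Ponatinib samples, and between 22.9% and 33.0% in the shRNA samples.

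Of the listed genes known to be activated by MYC, most fell with Ponatinib. This list and the other gene lists were written from general knowledge with earlier results of these data known. Their shares are thus descriptions and not independent evidence. The list holds 57 genes of ribosome production, translation, nucleotide and polyamine synthesis, metabolism and the cell cycle, and 56 were tested. The edgeR test called 40 lower (71.4%) and 6 higher (10.7%), with a median log2 FC of -0.37, against 15.7% lower, 15% higher and a median of -0.0047 over all genes tested. PPRC1, a coactivator of mitochondrial gene expression, had the largest fall, from 118 and 116 CPM with DMSO to 37.8 and 44.1 with Ponatinib (log2 FC -1.53, SE 0.08, adjusted p = 2.42e-09 by edgeR). RRS1, a ribosome assembly factor, fell from 39.6 and 38.6 to 14.9 and 14.7 CPM (log2 FC -1.40, adjusted p = 1.12e-07 by edgeR). CDC25A, the phosphatase that activates cyclin-dependent kinases, fell from 53.1 and 52.5 to 19.7 and 20.6 CPM (log2 FC -1.39, adjusted p = 2.85e-08 by edgeR). In each of these genes the Ponatinib samples were well below the DMSO samples.

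The 3 largest rises among the 6 listed genes that rose were in the cell cycle or in amino acid and folate supply. CCND2, cyclin D2, rose from 3.97 and 3.84 CPM to 22.8 and 24.8 (log2 FC 2.60, SE 0.16, adjusted p = 9.64e-09 by edgeR). MTHFD2, a mitochondrial folate enzyme, rose from 69.7 and 65.1 to 163 and 149 CPM (log2 FC 1.21, adjusted p = 8.89e-09 by edgeR). SLC7A5, a transporter of large neutral amino acids, rose from 468 and 476 to 848 and 896 CPM (log2 FC 0.88, adjusted p = 2.71e-08 by edgeR). The list was thus not uniform in direction. EIF4E and SRM, whose promoters are printed above, were both lower, EIF4E by a log2 FC of -0.35 (SE 0.07, adjusted p = 0.00119 by edgeR) and SRM by -0.30 (SE 0.07, adjusted p = 0.00322 by edgeR). An E-box was present in 11 of 32 windows (34.4%) of the listed genes that fell and in 4 of 10 (40%) of those not called. Over all genes tested it was in 12.2% of those lower, 11.5% of those higher and 9.1% of those not called.

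Of 12 genes known to be repressed by MYC, 8 were tested, and 4 were higher (50%) and 2 lower (25%), against 15% and 15.7% of all genes tested (median log2 FC 0.35). The cyclin-dependent kinase inhibitor CDKN1C rose from 6.80 and 8.38 to 25.1 and 23.8 CPM (log2 FC 1.70, adjusted p = 3.55e-07 by edgeR), and CDKN1B, another inhibitor of this kind, from 71.7 and 74.6 to 114 and 119 CPM (0.67, adjusted p = 2.47e-06). The growth factor receptor PDGFRB rose from 1.501 and 2.32 to 5.22 and 5.97 CPM (1.55, adjusted p = 0.000465 by edgeR). The stress-induced gene NDRG1 (-0.38, adjusted p = 0.000709 by edgeR) and the transcription factor KLF6 (-0.25, adjusted p = 0.00752 by edgeR) moved the other way. Both directions were thus present, as in the activated list.

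Of 8 genes known as targets of MLX and the Mondo proteins, 6 were tested, and 3 were higher (50%) and 0 lower, against 15% and 15.7% of all genes tested (median log2 FC 0.56). Without Ponatinib replicate 2, 3 were called higher and 2 lower. TXNIP, the inhibitor of glucose uptake, rose from 50.9 and 43.4 to 129.99 and 129 CPM (log2 FC 1.45, SE 0.08, adjusted p = 3.21e-09 by edgeR). Its relative ARRDC3 rose from 27.8 and 24.5 to 53.6 and 54.8 CPM (1.04, adjusted p = 5.96e-07 by edgeR), and the fatty acid desaturase SCD from 631 and 658 to 1015 and 1025 CPM (0.66, adjusted p = 4.71e-07 by edgeR). The partners of MLX were not called, with MLXIP at -0.06 (adjusted p = 0.617 by edgeR) and MLXIPL, at 1.06 to 2.34 CPM, at 0.92 (adjusted p = 0.0515 by edgeR). MYCL, a further MYC relative, was at 0.606 CPM or less in these 4 samples and was not tested.

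Of 20 genes for MYC cofactors and MYC turnover, 3 were higher (15%) and 4 lower (20%), near the 15% and 15.7% of all genes tested, and the median log2 FC was 0.01. BIN1, which binds and restrains MYC, rose by a log2 FC of 0.61 (adjusted p = 0.000238 by edgeR), the deubiquitinase USP28 by 0.47 (0.000904) and the chromatin remodeler EP400 by 0.30 (0.00385). WDR5, which anchors MYC to chromatin, fell by 0.40 on the log2 scale (adjusted p = 0.000208 by edgeR), and the helicases RUVBL1 and RUVBL2 by 0.34 (0.00291) and 0.23 (0.0239). The count of 7 was lower without DMSO replicate 1 and higher without Ponatinib replicate 1, as was the count over all genes tested. Of 11 genes of the SIN3 and related corepressors that the MXD proteins recruit, 4 were higher (36.4%) and 1 lower (9.09%), against 15% and 15.7% of all genes tested (median 0.17). SIN3A itself rose by 0.43 (adjusted p = 0.000398 by edgeR), NCOR1 by 0.36 (0.00308) and SUDS3 by 0.25 (0.0435), while the deacetylase HDAC2 fell by 0.24 (0.00874). The count of 5 was also lower without DMSO replicate 1 or 2 and higher without Ponatinib replicate 1, again as over all genes tested. It was 3 with DESeq2 or with no filter on low counts.

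**Figure D3:**
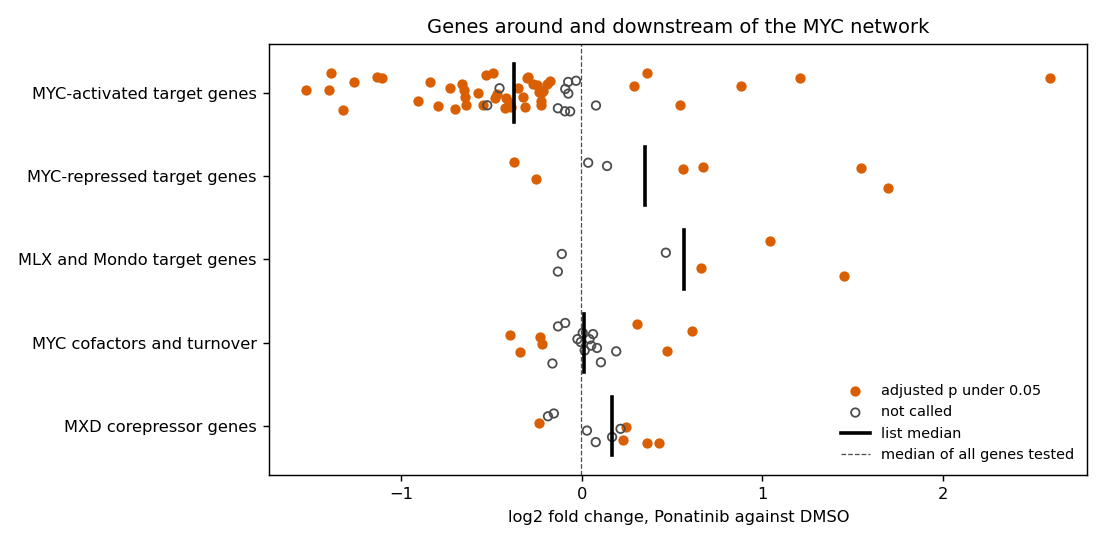
Each point is 1 tested gene of a list, placed by its log2 FC with Ponatinib against DMSO (n = 2 each). Filled points have an edgeR adjusted p under 0.05 and the black bars are list medians, which are -0.37 for the 56 MYC-activated genes and 0.56 for the 6 MLX and Mondo targets, with the median of all genes tested dashed.

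The knockdown samples have no replicates, so each comparison with shCtrl has no test, and a ratio is given with a 95% interval (exact binomial, conditional on the summed counts) that covers counting error only. All knockdowns share the single shCtrl sample, which stood further apart than the others: 276 of 15194 genes were over 2-fold from all of the other 3 shRNA samples in shCtrl, against 28 to 110 in each knockdown. Among the 9 detected genes, MXI1 alone was past 2-fold. It was lower with ABL1 shRNA and with both shRNAs, and no gene of the network was past 2-fold with ABL2 shRNA. Of all 15194 genes, 7.02% were past 2-fold with ABL1 shRNA (3.28% lower), 5.98% with ABL2 shRNA (2.32% lower) and 5.91% with both (2.38% lower). Past 1.5-fold were MXI1 in each knockdown and also MYC in that of ABL2, where 21.6%, 17.5% and 18.9% of all genes were past it in the ABL1, ABL2 and double knockdowns.

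MXI1 was at 97.6 CPM in shCtrl and at 38.6, 62.9 and 39.2 in the ABL1, ABL2 and double knockdowns. The knockdowns were thus all lower than shCtrl, with log2 ratios of -1.34 (interval -1.49 to -1.18), -0.63 (-0.77 to -0.50) and -1.32 (-1.48 to -1.16). With Ponatinib the same gene was higher than with DMSO. Of the other cell type markers given above, COL1A1 was also highest in shCtrl, CD14 and PECAM1 were lowest there and DCN was near 0 throughout, and their part in the MXI1 values was not tested.

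MYC was at 121 CPM in shCtrl and at 110.0, 71.3 and 99.1 in the ABL1, ABL2 and double knockdowns. It was lowest with ABL2 shRNA alone, at 0.589 times shCtrl (log2 ratio -0.76, interval -0.89 to -0.64), and the sample with both shRNAs lay nearer to shCtrl (-0.29, interval -0.40 to -0.18). With ABL1 shRNA the log2 ratio was -0.14 (interval -0.25 to -0.03). As for the targeted genes, ABL2 mRNA was at 39.6% of shCtrl with ABL2 shRNA alone and at 62.6% with both. In the treatment set, ABL2 was at 334 and 305 CPM with DMSO and at 147 and 169 with Ponatinib (log2 FC -1.02, SE 0.07, adjusted p = 8.56e-08 by edgeR). ABL1 was at 165 and 162 with DMSO and at 182 and 193 with Ponatinib (0.19, adjusted p = 0.0287 by edgeR). Whether the levels of ABL2 and MYC are linked was not tested.

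The other members varied less among the shRNA samples. MXD3 was at 19.9 CPM in shCtrl and at 22.4, 27.6 and 26.4 with ABL1, ABL2 and both shRNAs, and the interval of its log2 ratio lay above 0 in the ABL2 knockdown (0.47, 0.23 to 0.72) and the double knockdown (0.41, 0.16 to 0.66). MXD4 was at 115 CPM in shCtrl and at 95.2, 81.8 and 105 in the knockdowns, with all 3 intervals below 0 and the lowest log2 ratio with ABL2 shRNA (-0.49, -0.61 to -0.37). MXD1 was at 21.3 CPM in shCtrl and at 18.0, 21.5 and 15.6, below shCtrl beyond counting error only with both shRNAs (-0.45, -0.73 to -0.17). The MXD genes thus did not move as 1 group. MAX was between 39.0 and 49.4 CPM, MLX between 61.1 and 69.3 and MGA between 86.9 and 109, and MNT was between 27.5 and 28.6, with intervals that include 0 in all 3 comparisons.

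The MYC share of the MAX-partner transcripts was 28.7% in shCtrl and 33.0%, 22.9% and 29.8% in the ABL1, ABL2 and double knockdowns. In the ABL1 knockdown the share was above that of shCtrl although MYC itself was not, and the MXD family made up 51.2% there against 59.1% in shCtrl. The sum over the partners was 68.9 CPM per kb in shCtrl and between 51.0 and 54.6 in the knockdowns. The MYC-activated list had median log2 ratios of -0.07, -0.13 and 0.004 with ABL1, ABL2 and both shRNAs over 55 genes. Of these, 21, 15 and 28 were above shCtrl, against 7660, 7464 and 7603 of all 15194 genes. The medians of all genes were within 0.01 of 0. TXNIP, which rose with Ponatinib, was at 502 CPM in shCtrl and lower in all knockdowns, at 322, 225 and 237.

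**Figure D4:**
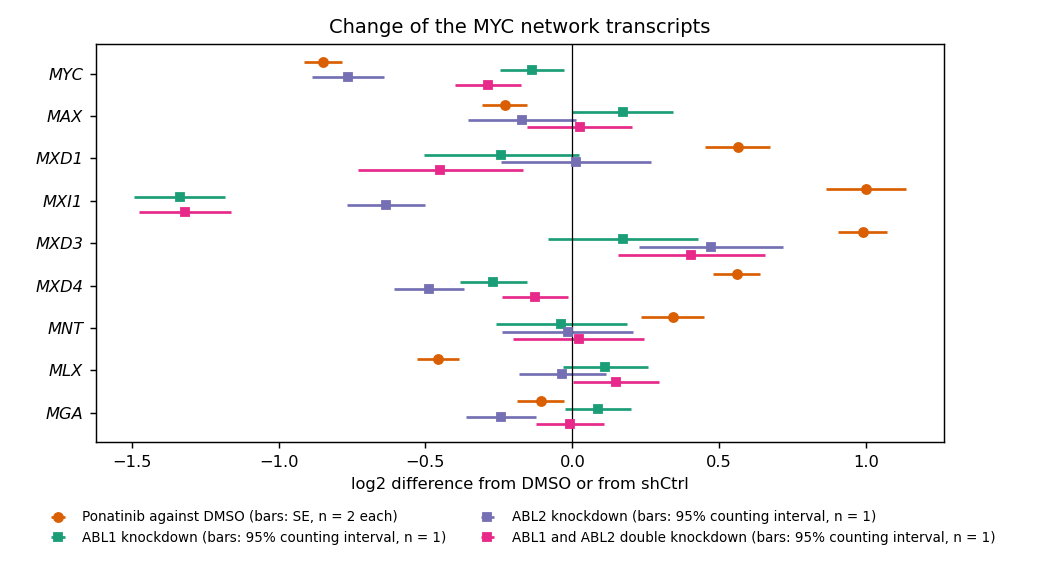
log2 difference of the 9 detected genes from DMSO (Ponatinib, circles, bars are standard errors, n = 2 each) or from shCtrl (knockdowns, squares, bars are 95% counting intervals, n = 1 each). MYC is at -0.85 with Ponatinib and between -0.76 and -0.14 in the knockdowns, whereas MXI1 is at 1.00 with Ponatinib and between -1.34 and -0.63 in the knockdowns.

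The genes whose pattern was most like that of MYC were sought among 10518 genes with a mean of at least 100 counts, by Pearson's r of log2 CPM over the 8 samples, each centered within its set of 4. Since these samples include the contrasts described above and share 1 shCtrl sample and the same libraries, r is a description. The 5 nearest were AMOTL2 (r = 0.9994), NFATC2 (0.9983), EBNA1BP2 (0.993), USP15 (0.9916) and SGK1 (0.9887). AMOTL2, a scaffold protein of cell junctions, was at 201 and 209 CPM with DMSO and at 83.4 and 83.3 with Ponatinib. In the shRNA set it was at 163 in shCtrl and at 142, 72.0 and 124 with ABL1, ABL2 and both shRNAs, the same order as for MYC. The kinase gene SGK1 was at 22.9 and 22.5 CPM with DMSO, 8.91 and 8.96 with Ponatinib, 19.6 in shCtrl and 20.3, 10.2 and 17.2 in the knockdowns. Within the network, MAX (r = 0.88), MLX (0.86) and MGA (0.67) varied with MYC, and MXD3 (-0.95), MNT (-0.77), MXD1 (-0.73), MXI1 (-0.50) and MXD4 (-0.41) varied against it. All these values pool sets that can differ. MXI1 and MXD4 were higher with Ponatinib, where MYC was lower, but were below shCtrl in all 3 knockdowns, as MYC was. MXD1 was likewise below shCtrl in the ABL1 and double knockdowns, whereas MLX was above it there. MNT stayed between 27.5 and 28.6 CPM in the shRNA samples.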

How the data were processed

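The authors extracted RNA from LM2 cells, aligned reads to hg38 and deposited unnormalized counts for each gene, 1 table per sample. The submitters' processing notes name TopHat, FastQC and HTSeq 0.6.0. The strand setting is not given in the sources used here. The tables of the 4 shRNA samples also hold 5 summary rows each (9.48% to 9.90% of reads on no feature and 6.12% to 6.32% ambiguous), which were left out.

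Counts were analysed with edgeR 4.0.16 in R 4.3.3 (TMM, filterByExpr, quasi-likelihood test, Benjamini-Hochberg adjusted p under 0.05) in the 4 DMSO and Ponatinib samples. Knockdowns were given as ratios of TMM CPM, with called meaning past 2-fold, among genes with a mean of at least 10 counts over the 4 shRNA samples. A symbol was matched to 54836 of 58688 gene IDs. Positions and exon lengths came from GENCODE on GRCh38 and promoters from RefSeq. A floor of 3 counts was 0.231 to 0.396 CPM.

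The members and lists were chosen with earlier results of these data known, and the lists were written from general knowledge. All members were named, with up to 3 largest rises and falls called in each list, ABL1, ABL2 and the 5 genes most like MYC. EIF4E and SRM, the genes overlapping members and the cell type markers were named outside that rule or as checks. One marker gene is not reported here. The test was checked on data simulated with the depths of the DMSO and Ponatinib samples (15986 genes fitted). It recovered 50 of 75 genes changed by a log2 of 0.5, 62 of 63 changed by 1 and 62 of 62 changed by 2, with 5 unchanged genes called. The simulation gave every gene and both groups the same relative spread, which the data do not have, so it does not give the error rate of these calls. The repeats of a group differed by more than counting error (chi-square per degree of freedom 1.44 for DMSO and 3.12 for Ponatinib). How they were made is not stated in the labels. Alternatives were DESeq2 1.42.0 size factors and its Wald test, other filters, a replicate block, a fit of all 8 samples, the study's DEG rule, leaving out each sample, other scalings of the knockdowns and transcript length. With 2 samples in the largest group, single outlying samples were not tested.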

Additional observations from a re-analysis of the deposited data

How the results depend on the processing

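Of the comparisons' values, 82 alternatives stayed close to the reported value and 16 moved. A count was taken as close up to a ratio of 1.5, so that 6 members called in place of 8 was close. A MYC share was close when it differed by less than the larger SD of the DMSO and Ponatinib repeats. For single members, 162 alternatives were counted as the same. With Ponatinib this meant the same call and direction, and for a knockdown ratio a value within its counting interval. A few knockdown ratios near 0 changed sign within that interval, such as MNT with ABL2 shRNA (log2 ratio -0.0165, and 0.0274 with total counts). Of the Ponatinib alternatives, 7 lost a call (4 for MAX and 3 for MNT) and 1 gained one (MGA at -0.20 without Ponatinib replicate 2). Another 1 turned the direction, MGA at 0.000283 without Ponatinib replicate 1, a difference near 0. Leaving out 1 sample at a time gave 6 to 9 members called, 0 to 1 of the other network genes, 3 to 11 cofactors, 2 to 8 corepressors, 35 to 47 MYC-activated genes, 5 to 8 MYC-repressed genes and 3 to 5 MLX and Mondo targets (3 higher and 2 lower at most). DESeq2 called 6 members and 3 corepressors, and no filter on low counts gave 3 corepressors. Under the study's DEG rule the counts were 0 members, 0 cofactors, 0 corepressors, 9 MYC-activated genes and 2 MYC-repressed genes. With a fold of 1.5 in place of 2, 2 members (MYC and MXI1, both lower) were called with ABL2 shRNA, where 17.5% of all genes were. With the longest transcript the mean MYC share with Ponatinib was 28.9% in place of 29.8%. Over all genes tested, 4917 were called, against 2576 with DESeq2. The number was lower without DMSO replicate 1 or 2 and higher without Ponatinib replicate 1 or 2. In the fits used here the DEG rule gave 878 genes, 1234 with no filter and 401 with a mean of at least 50 counts. Each number is larger than the one the study reported. Same-numbered samples did not deviate together (r = 0.0311 across 11933 genes), and a model with a replicate block for the repeat number called 8 members and 4984 genes. The causes of these differences were not tested. Members with the fewest counts, MXI1 and MXD1, are measured with the least precision, and the knockdowns have no replicate error at all.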

Other observations

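The levels of some members in the control samples of the treatment and shRNA sets are given side by side with no comparison, since the sets differ in infection, selection and time and 68 abundant genes of the treatment set had 0 counts throughout the shRNA set. MXI1 was at 13.6 and 13.5 normalized CPM with DMSO and at 97.6 in shCtrl. MXD4 was at 42.5 and 47.8 with DMSO and at 115 in shCtrl, and MYC was at 170.4 and 178 with DMSO and at 121 in shCtrl. TXNIP was at 50.9 and 43.4 with DMSO and at 502 in shCtrl, and NDRG1 was at 170.4 and 190 with DMSO and at 1356 in shCtrl.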
